A study of Homo sapiens with 4 samples.

Results

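The genes described here encode MHC class I molecules and the proteins that load them with peptide. They are 9 of the 59652 genes in the count table, picked by name: the class I heavy chains HLA-B, HLA-C, HLA-E and HLA-F, the light chain B2M, the peptide transporter subunits TAP1 and TAP2, the loading chaperone TAPBP and the transactivator NLRC5. All 9 were present in the table and all 9 passed the filter on low counts, HLA-B and HLA-F only through their reads in PLC cells. RNA came from Huh7 and PLC (PLC/PRF/5) cells, established hepatocellular carcinoma (HCC) lines labelled as wild type. Each line was kept for 48 h in glucose-free DMEM with fetal bovine serum, to which 5 mM (low) or 25 mM (high) glucose was added. The study used these libraries to screen for long non-coding RNAs that respond to glucose in HCC cells. There was 1 library for each line and glucose concentration, so 4 libraries in all and no replicate cultures.

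MHC class I molecules carry peptides from inside the cell to its surface, where CD8 T cells and natural killer cells read them. A heavy chain folds with the light chain, beta-2 microglobulin, in the endoplasmic reticulum. The proteasome cuts proteins into peptides, the transporter TAP moves them into the endoplasmic reticulum, and tapasin (the product of TAPBP) bridges TAP to the empty heavy chain. NLRC5 drives transcription of these genes together with RFX, CREB and NF-Y proteins at their promoters, and interferons and NF-kappa B raise it further. Loss of class I expression is a known route by which tumours, HCC included, escape T cells.

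The promoters of these genes share short sequence elements, which the printed windows show. RefSeq windows on GRCh38.p14 were found for 7 of the 9 genes, and all 7 are printed, while HLA-E and NLRC5 had none. The windows are the 250 bases before the start annotated in RefSeq, read 5′ to 3′ on the strand of the gene. That start can differ from the one in the count table. By the coordinates of the count table, the windows of HLA-F, TAP1 and TAPBP lie inside the gene, and the others overlap its first bases. Capitals mark a match on either strand to a kappa B site (GGGNNTTCC), an interferon-stimulated response element core (ISRE, GAAANNGAA or GAANNGAAA), the first letters of a cAMP response element (TGACG) or a CCAAT box, and neighbouring matches can overlap.
HLA-B, chr6:31357180-31357429, minus strand: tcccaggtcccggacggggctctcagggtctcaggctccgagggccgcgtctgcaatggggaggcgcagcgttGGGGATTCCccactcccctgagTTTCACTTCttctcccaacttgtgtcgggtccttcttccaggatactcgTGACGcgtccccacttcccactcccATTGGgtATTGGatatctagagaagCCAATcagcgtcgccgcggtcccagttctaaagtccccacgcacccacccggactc
HLA-C, chr6:31272093-31272342, minus strand: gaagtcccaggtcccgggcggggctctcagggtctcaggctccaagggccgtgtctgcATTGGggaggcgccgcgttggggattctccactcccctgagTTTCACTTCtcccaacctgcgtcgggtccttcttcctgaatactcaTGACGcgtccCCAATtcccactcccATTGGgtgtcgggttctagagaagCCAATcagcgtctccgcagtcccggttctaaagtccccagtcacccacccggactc
HLA-F, chr6:29723184-29723433, plus strand: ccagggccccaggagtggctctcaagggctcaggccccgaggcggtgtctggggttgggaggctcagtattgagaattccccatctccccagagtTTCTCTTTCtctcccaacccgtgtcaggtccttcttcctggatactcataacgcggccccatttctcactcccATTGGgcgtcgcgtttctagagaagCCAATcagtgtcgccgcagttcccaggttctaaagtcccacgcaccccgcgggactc
B2M, chr15:44711267-44711516, plus strand: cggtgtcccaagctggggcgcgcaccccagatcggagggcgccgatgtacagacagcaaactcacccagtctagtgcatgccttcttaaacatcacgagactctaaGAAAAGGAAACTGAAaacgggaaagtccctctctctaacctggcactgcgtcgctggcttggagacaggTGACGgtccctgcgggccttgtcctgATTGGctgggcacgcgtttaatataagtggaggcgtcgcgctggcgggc
TAP1, chr6:32853705-32853954, minus strand: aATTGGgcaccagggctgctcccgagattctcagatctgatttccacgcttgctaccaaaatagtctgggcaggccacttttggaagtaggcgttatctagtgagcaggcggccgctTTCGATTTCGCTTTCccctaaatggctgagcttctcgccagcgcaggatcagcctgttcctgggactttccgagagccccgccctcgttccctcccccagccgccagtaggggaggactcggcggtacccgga
TAP2, chr6:32838740-32838989, minus strand: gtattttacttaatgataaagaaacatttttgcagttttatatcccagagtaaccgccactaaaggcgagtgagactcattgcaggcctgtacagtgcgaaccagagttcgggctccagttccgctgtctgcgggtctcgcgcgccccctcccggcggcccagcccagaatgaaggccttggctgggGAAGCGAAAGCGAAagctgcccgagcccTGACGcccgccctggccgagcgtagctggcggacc
TAPBP, chr6:33314079-33314328, minus strand: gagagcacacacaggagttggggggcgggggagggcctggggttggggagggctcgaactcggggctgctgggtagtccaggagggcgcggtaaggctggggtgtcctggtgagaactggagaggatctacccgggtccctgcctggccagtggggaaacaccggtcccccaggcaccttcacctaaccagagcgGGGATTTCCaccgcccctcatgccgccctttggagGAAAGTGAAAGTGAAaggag
An ISRE core was present in the windows of all 7 genes (for TAP1, the first of its 2 annotated starts), against 12.4% of 35116 RefSeq windows of this length. It lay 155 to 147 bases before the start in HLA-B and HLA-F and 151 to 143 bases before it in HLA-C. In B2M, TAP1, TAP2 and TAPBP, 2 cores overlapped. The window of the second TAP1 start held none of the 4 motifs. The letters GGGNNTTCC were found in HLA-B and TAPBP, against 5.78% of all windows. Longer forms of the kappa B site, such as gggactttcc in the TAP1 window, were not searched and are not marked. TGACG was found in HLA-B, HLA-C, B2M and TAP2, against 21.2%, and CCAAT in HLA-B, HLA-C, HLA-F, B2M and TAP1, against 32%. The HLA-B and HLA-C windows were 91.9% identical over aligned bases, and HLA-F was 81.8% and 82.7% identical to them. Other pairs of windows shared 45.8% to 60.7%. These are matches of letters, and occupancy was not measured.

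The Huh7 libraries held 21376239 (5 mM) and 30085303 (25 mM) counted reads, and those of PLC 30279716 and 16049686. Levels are given as FPKM, the reads of a gene divided by its exon length and by the library total. Of 7 hepatocyte markers, edgeR called 6 higher in Huh7 cells, and 5 without glucose in the design, where AFP had an adjusted p of 0.123. Of all genes tested, 5072 of 23217 were higher in Huh7. HNF4A was not called, with an edgeR log2 difference (PLC minus Huh7) of 0.30 and an adjusted p of 0.263. The summed level of the 7 markers, most of it ALB, AFP and APOB, was 4760 and 4880 FPKM in Huh7 cells and 637 and 1410 FPKM in PLC cells. TTR, the thyroid hormone carrier of liver, had 4 and 0 reads in PLC cells and passed the count filter only through Huh7 cells. Among 5 leukocyte markers, CD3E and HLA-DRA had 0 reads in all 4 libraries and PTPRC had at most 5. The summed level of the 5 was 33.5 and 35.4 FPKM in Huh7 and 3.87 and 11.2 FPKM in PLC cells, most of it LYZ, and the summed level of 3 fibroblast markers was at most 0.442 FPKM. The endothelial marker PECAM1 was at 2.37, 2.55, 0.115 and 0.29 FPKM at Huh7 5 mM, Huh7 25 mM, PLC 5 mM and PLC 25 mM, the order in which values of 4 libraries are given throughout, and the other endothelial markers, VWF and CDH5, had at most 2 reads. The part of these markers in the differences between the lines was not tested.

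Class I and loading genes were higher in PLC than in Huh7 cells, with ratios from 1.13 for B2M at 25 mM to 47.8 for TAP1 at 5 mM. All 9 genes had a higher FPKM in PLC cells at both glucose concentrations, a pattern that 39.8% of the 23217 genes tested showed. In the edgeR quasi-likelihood test of the lines, with glucose as a covariate and Benjamini-Hochberg adjustment over all genes tested, 6 of the 9 genes were higher in PLC at an adjusted p under 0.05. They were HLA-B, HLA-C, HLA-E, HLA-F, TAP1 and TAPBP, while B2M, TAP2 and NLRC5 did not pass. Of all 23217 genes tested, 42.9% passed in either direction and 21.1% were higher in PLC. With at least 10 counts required in every library, HLA-B and HLA-F were not tested and 4 of 7 genes were called, all higher in PLC. In that setting 3171 of 16164 genes tested were higher in PLC. The median log2 difference (PLC minus Huh7) was 1.59 over the 9 genes and -0.03 over all genes tested. The fit has 1 residual degree of freedom, in which the interaction of line and glucose stands in for error, and neither the 2 glucose concentrations nor the 2 lines are replicate cultures.

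**Figure D1:**
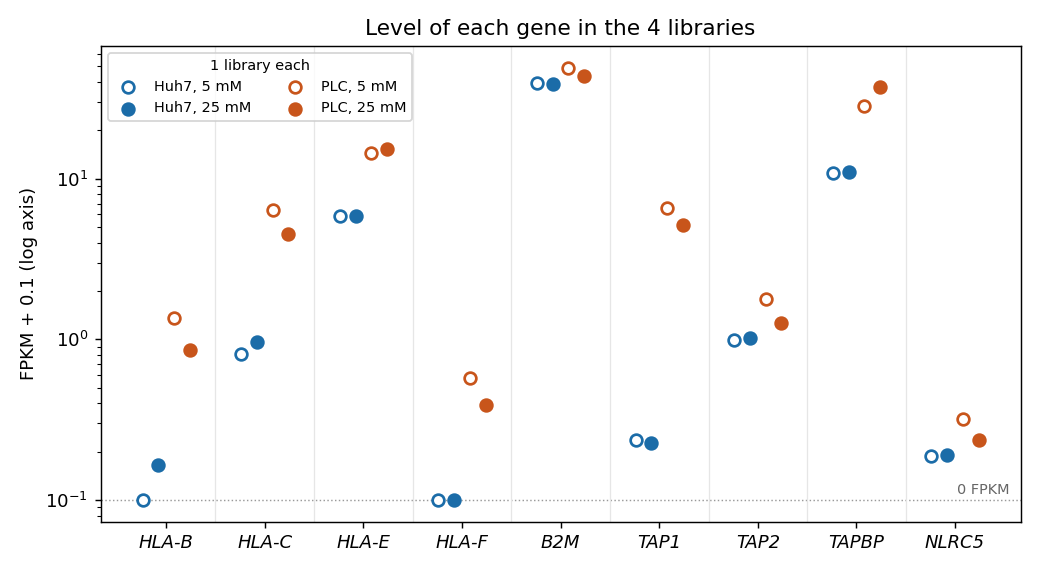
FPKM plus 0.1 (log axis) of the 9 genes in the 4 libraries, 1 point per library, with Huh7 in blue, PLC in orange, open points at 5 mM and filled points at 25 mM glucose. Both PLC points lie above both Huh7 points for every gene, by little for B2M and by the most for TAP1, and points on the dotted line have 0 reads.

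HLA-C and HLA-B encode classical heavy chains, which present peptides to CD8 T cells and, for HLA-C above all, serve as ligands of natural killer cell receptors. HLA-C (chr6:31268749-31272130 on hg38, minus strand) was at 0.709, 0.862, 6.28 and 4.4 FPKM. The PLC libraries were 8.86 times (95% counting interval 6.36 to 12.7) and 5.1 times (3.82 to 6.89) the Huh7 libraries at 5 and 25 mM. In the edgeR fit the log2 difference was 2.74 (SE 0.38, adjusted p = 7.41e-05). The counting intervals are exact binomial ones and cover counting error only.

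HLA-B (chr6:31269491-31357188, minus strand) had 0, 6, 116 and 37 reads, or 0, 0.0654, 1.26 and 0.756 FPKM. It was close to the detection limit in Huh7 cells and measurable in PLC cells. The PLC level was at least 27.3-fold higher at 5 mM, set against a floor of 3 reads, and 11.6 times (4.84 to 33.5) higher at 25 mM. The edgeR log2 difference was 4.71 (SE 0.84, adjusted p = 0.000559). In the table HLA-B has a separate exon of 35 bases at chr6:31269491-31269525, inside HLA-C, while its other exons lie between 31353872 and 31357188.

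HLA-E and HLA-F are nonclassical heavy chains. HLA-E, which presents leader peptides of other class I chains to natural killer cells, was the most abundant of the 4 heavy chains in every library. It (chr6:30489509-30494194, plus strand) was at 5.75, 5.78, 14.3 and 15.2 FPKM. PLC cells held 2.48 times (2.2 to 2.8) and 2.64 times (2.35 to 2.96) the Huh7 level, and the edgeR log2 difference was 1.36 (SE 0.26, adjusted p = 0.000936).

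HLA-F (chr6:29722775-29738528, plus strand) had 0 reads in both Huh7 libraries and 62 and 20 in the PLC libraries, or 0.475 and 0.289 FPKM. Its reads were thus found in 1 line only, at a level that did not reach 0.5 FPKM. PLC cells were at least 14.6-fold and 12.5-fold higher at 5 and 25 mM. The edgeR test gave an adjusted p of 0.000385, and its fitted log2 difference of 8.27 (SE 1.36) depends on the prior count. With HLA-F set at its bound the median over the 9 genes stayed at 1.59.

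B2M, the light chain shared by all class I molecules, was the most abundant of the 9 genes in every library and differed least. It (chr15:44711487-44718877, plus strand) was at 39, 38.6, 49 and 43.5 FPKM, between the percentiles 95.9 and 96.8 of the genes tested. PLC over Huh7 was 1.26 (1.21 to 1.3) at 5 mM and 1.13 (1.09 to 1.17) at 25 mM, so the intervals left out 1, but the edgeR log2 difference of 0.26 (SE 0.20) had an adjusted p of 0.337. The RNA of B2M and HLA-E stood in different proportions in the libraries of the lines. B2M was 6.79 and 6.67 times HLA-E in FPKM in Huh7 cells and 3.44 and 2.85 times HLA-E in PLC cells. This difference was not tested. Ratios and orders of FPKM between genes also rest on the exon lengths of the table, 6079 bases for B2M and 2922 for HLA-E.

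TAP1 and TAP2 form one transporter, and their transcripts differed unequally between the lines. TAP1 (chr6:32845209-32853978, minus strand) had 14, 18, 947 and 387 reads, or 0.136, 0.125, 6.51 and 5.02 FPKM. It stood at the percentiles 9.93 and 9.11 of the genes tested in the Huh7 libraries, against 73 and 66.5 in those of PLC. PLC over Huh7 was 47.8 (28.3 to 87.7) at 5 mM and 40.3 (25.2 to 68.7) at 25 mM. The edgeR log2 difference was 5.44 (SE 0.38, adjusted p = 1.4e-07).

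TAP2 (chr6:32821833-32838770, minus strand) was at 0.895, 0.912, 1.68 and 1.16 FPKM. PLC over Huh7 was 1.88 (1.52 to 2.34) at 5 mM and 1.27 (1 to 1.62, including 1 under TMM scaling) at 25 mM, and the edgeR log2 difference of 0.64 (SE 0.35) had an adjusted p of 0.159. Within each library, TAP1 was 0.152 and 0.137 times TAP2 in Huh7 cells and 3.87 and 4.32 times TAP2 in PLC cells. TAP2 was thus the more abundant of the subunits in Huh7 libraries and TAP1 in PLC libraries.

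TAPBP, which encodes tapasin, was second in abundance to B2M in every library. It (chr6:33299694-33314387, minus strand) was at 10.7, 10.9, 28.3 and 37.1 FPKM. PLC cells had 2.64 times (2.47 to 2.82) and 3.39 times (3.2 to 3.6) the Huh7 level, with an edgeR log2 difference of 1.59 (SE 0.23, adjusted p = 8.8e-05).

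NLRC5, the transactivator of class I genes, was low in both lines. It (chr16:56989485-57083531, plus strand) had 23, 34, 82 and 27 reads, or 0.0869, 0.0912, 0.219 and 0.136 FPKM. PLC over Huh7 was 2.52 (1.57 to 4.19) at 5 mM and 1.49 (0.864 to 2.54) at 25 mM, where the interval included 1. The edgeR log2 difference of 0.96 (SE 0.53) had an adjusted p of 0.161.

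**Figure D2:**
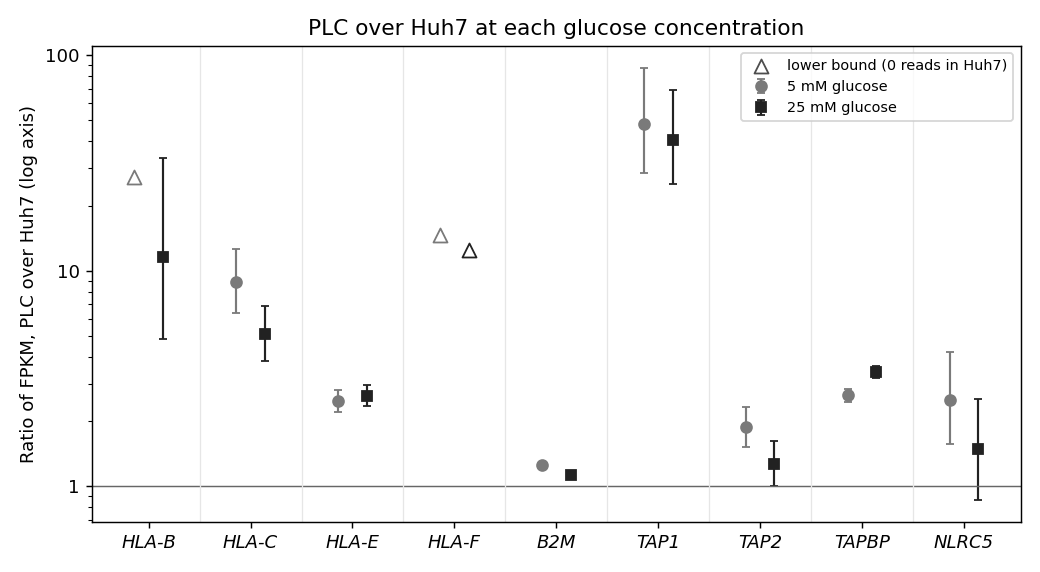
Ratio of FPKM, PLC over Huh7 (log axis), for the 9 genes at 5 mM (grey circles) and 25 mM glucose (black squares), with bars for 95% counting intervals and triangles for lower bounds where Huh7 had 0 reads. TAP1 has the highest ratios at 47.8 and 40.3, B2M the lowest at 1.26 and 1.13, and for each gene with 2 ratios both lie above the line at 1.

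Among the 7 genes over 0.5 FPKM in at least 1 of the compared libraries, 5 were at least 2-fold higher in PLC at both glucose concentrations. These were HLA-B, HLA-C, HLA-E, TAP1 and TAPBP, and 15.4% of 21804 genes met the same rule. HLA-B and TAP1 passed the level filter only through PLC cells, and with FPKM over 0.5 required in both libraries the count was 3. In decreasing level, the order in Huh7 cells was B2M, TAPBP, HLA-E, TAP2, HLA-C, TAP1, NLRC5, HLA-B and HLA-F. In PLC cells it was B2M, TAPBP, HLA-E, TAP1, HLA-C, TAP2, HLA-B, HLA-F and NLRC5, with TAP1 moving past TAP2 and HLA-C. With 1 library per condition the spread behind this order is not known, and reads alone do not separate fewer transcripts in every cell from fewer cells with transcripts.

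Of the 9 genes, 7 lie on chromosome 6, between 29722775 and 33314387, in the MHC region. This interval held 304 other genes of the table, of which 114 were tested. There, 39 of them (34.2%) were higher in PLC and 7 (6.14%) higher in Huh7, with a median log2 difference of 0.63. Of all 23217 genes tested, 4897 (21.1%) were higher in PLC and 5072 higher in Huh7, with a median of -0.03. The 3 genes that did not pass were B2M and NLRC5, on chromosomes 15 and 16, and TAP2, on chromosome 6. The part of the region in the differences of the 7 genes was not tested.

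The heavy chains are similar and highly polymorphic, so reads can be shared between genes or lost where an allele is far from the reference, and their counts are uncertain. Whether counting used the strand is not given in the sources used here. Genes on the other strand shared 12.4% of the HLA-F exon bases (HLA-F-AS1, with 2, 2, 9 and 4 reads) and 12% of those of TAP1 (PSMB8-AS1, at most 1 read). Others on that strand, with 0 reads, shared 17.8% of the HLA-B and 15.6% of the HLA-F exon bases. On the same strand as TAP2, AL669918.1, with 0 reads, shared 32.2% of its exon bases. Reads in such shared bases cannot be assigned to 1 gene.

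None of the 9 genes passed the test for a glucose change shared by both lines. In the edgeR fit with the cell line as a covariate, 0 of 9 genes passed an adjusted p under 0.05, and 0 had an unadjusted p under 0.05. DESeq2 and limma also gave 0 on both counts, though DESeq2 gave no adjusted p for HLA-B, HLA-F and NLRC5. Of all genes tested, edgeR called 0.379%, and 1975 of 23217 had an unadjusted p under 0.05. The log2 differences (25 minus 5 mM) ran from -0.81 for HLA-F to 0.13 for TAPBP, with a median of -0.25 against -0.01 over all genes tested. Changes in opposite directions in the lines cancel in this fit.

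In Huh7 cells the levels of HLA-E, B2M and TAPBP at 25 and 5 mM were close. Of the 5 genes over 0.5 FPKM, 0 had a ratio of FPKM (25 over 5 mM, 0.1 added to both) over 1.5 or under 0.67, the thresholds of the study, against 27.8% of the genes past that level. The ratio without the added value was 1.01 (0.877 to 1.15) for HLA-E, 0.988 (0.953 to 1.03) for B2M and 1.02 (0.945 to 1.1) for TAPBP. For TAP2 it was 1.02 with a wider interval (0.804 to 1.3). For HLA-C, with 38 and 65 reads, it was 1.215 (0.802 to 1.86), an interval too wide to show a moderate change. Counting intervals left out 1 for 0 of 9 genes, against 42.6% of genes tested, and with TMM scaling for 1, B2M, whose interval then lay below 1. For HLA-B, with 0 and 6 reads, TAP1, with 14 and 18, and NLRC5, with 23 and 34, the depth was too low to show a moderate change, and HLA-F had no reads.

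In PLC cells most of the genes were lower at 25 mM and TAPBP was higher, beyond counting error and with no replicate check. The interval of the ratio lay below 1 for 6 of 9 genes (HLA-B, HLA-C, B2M, TAP1, TAP2 and NLRC5), against 21.9% of genes tested. It lay above 1 for TAPBP, against 31.4% of genes tested. With trimmed mean of M values (TMM) scaling, which lowered the PLC log2 ratios by 0.12, HLA-F joined those below 1 and the shares of all genes became 27.8% below and 25.3% above. The ratio was 0.70 (0.586 to 0.834) for HLA-C, 0.771 (0.683 to 0.869) for TAP1, 0.691 (0.555 to 0.855) for TAP2 and 0.621 (0.386 to 0.97) for NLRC5. B2M stood at 0.887 (0.855 to 0.92), HLA-E at 1.07 (0.975 to 1.17) and TAPBP at 1.31 (1.25 to 1.37).

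At the thresholds of the study, 1 of the 7 genes over 0.5 FPKM in PLC cells had a ratio under 0.67, against 17% of genes, and 0 had a ratio over 1.5, against 26.2%. The count under 0.67 was 3 with TMM scaling or DESeq2 size factors (HLA-B, HLA-C and TAP2) and 0 with a pseudocount of 1. TMM scaling lowered the PLC log2 ratios of all genes by 0.12, and the share of all genes was not computed for these settings. With library totals and 0.1 added, the gene under 0.67 was HLA-B, at 0.602 (0.404 to 0.878) without and 0.631 with the added 0.1. HLA-F, just below the level filter, had a ratio of 0.609 with an interval of 0.348 to 1.02. The median log2 ratio was -0.37 for the 7 genes in PLC cells, against 0.10 for all genes tested and over 0.5 FPKM, and 0.02 against 0.04 for the 5 genes in Huh7 cells. Whether the lines differ in their response to glucose was not tested, since that difference is the error term of the fit.

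**Figure D3:**
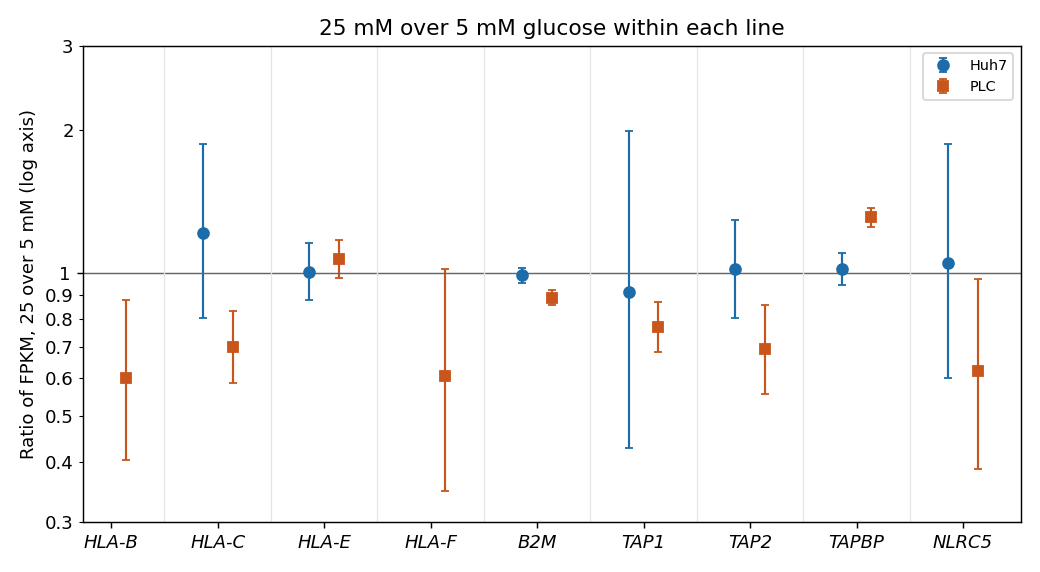
Ratio of FPKM, 25 over 5 mM glucose (log axis), for the 9 genes in Huh7 (blue circles) and PLC cells (orange squares), with bars for 95% counting intervals and no ratio where the 5 mM library had 0 reads. With library totals, as drawn, every Huh7 interval crosses the line at 1, while in PLC 6 genes lie below it with their intervals and TAPBP lies above it at 1.31.

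The other genes of the pathway were read in the same way. For the counts of each list below, edgeR called 21.1% of all genes tested higher in PLC and 5072 of 23217 higher in Huh7. Of 12 other genes with the class I fold, 8 were tested, 4 were higher in PLC, 1 was higher in Huh7 and 3 did not pass. MICA, a stress ligand of the natural killer receptor NKG2D, was at 0.583, 0.578, 9.04 and 14.5 FPKM, with an edgeR log2 difference of 4.31 (SE 0.33, adjusted p = 3e-07). MR1, which presents vitamin metabolites to T cells, HFE, a regulator of iron uptake, and the NKG2D ligand ULBP1 were higher in PLC by 2.87, 1.08 and 3.02 on the log2 scale, and ULBP3, another such ligand, was higher in Huh7 (-6.29). ULBP3 had 55, 181, 2 and 0 reads and passed the count filter only through Huh7 cells.

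ULBP1 was the only gene of the pathway lists called for glucose. It had 52, 18, 560 and 84 reads, or 0.758, 0.186, 5.76 and 1.63 FPKM, and fell from 5 to 25 mM in both lines. The ratio of 25 over 5 mM was 0.246 (0.135 to 0.427) in Huh7 and 0.283 (0.222 to 0.357) in PLC cells, and the edgeR log2 difference was -1.99 (SE 0.37, adjusted p = 0.0438). The log2 difference stayed between -2.01 and -1.90 in all 8 settings tried, but 4 of them, limma and library totals among these, did not call it.

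Of 7 genes for peptide loading and trimming, 4 were higher in PLC, 1 was higher in Huh7 and 2 did not pass. ERAP2, an aminopeptidase that trims peptides in the endoplasmic reticulum, was at 0.121, 0.21, 0.575 and 1.51 FPKM (edgeR log2 difference 2.57, SE 0.42, adjusted p = 0.000301). CANX (calnexin, a chaperone of new heavy chains), LNPEP, an aminopeptidase of endosomes, and PDIA3, a partner of tapasin, differed by 0.81, 0.90 and 0.54. TAPBPL, which encodes a relative of tapasin that edits peptides, was lower in PLC (-1.74, edgeR adjusted p = 0.00864). DESeq2 did not call TAPBPL (adjusted p = 0.126), and 3 of the 8 settings did not call PDIA3, at adjusted p up to 0.0788.

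The immunoproteasome is a form of the proteasome with 3 exchanged catalytic subunits, and 2 of them went opposite ways. PSMB9 had 0, 0, 22 and 14 reads (edgeR adjusted p = 0.00444), and PSMB8 had 12, 21, 0 and 0 reads (edgeR adjusted p = 0.0092). DESeq2 called neither, with an adjusted p of 0.0807 for PSMB9 and 0.16 for PSMB8. Each was thus seen in 1 line only, at no more than 0.261 FPKM, and passed the count filter only through that line. The remaining genes of the list, PSMB10 and the activator subunits PSME1 and PSME2, did not pass. Of the 14 standard proteasome subunits, 0 were higher in PLC, 3 (PSMB7, PSMA3 and PSMB3) were higher in Huh7 and 11 did not pass.

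Of 16 regulators of class I genes, 1 was higher in PLC, 2 were higher in Huh7 and 13 did not pass. RELA, a subunit of NF-kappa B, was at 10.4, 10, 23.8 and 14 FPKM (edgeR log2 difference 0.85, SE 0.25, adjusted p = 0.0157). NFKB1, another subunit, and EZH2, a histone methyltransferase, were higher in Huh7 (-0.68 and -0.65). Without glucose in the design none of the 3 was called, at adjusted p of 0.0596 for RELA, 0.0699 for NFKB1 and 0.053 for EZH2 in edgeR. DESeq2 did not call NFKB1 either (adjusted p = 0.0558). IRF1, a direct activator of class I promoters, was at 1.2, 1.26, 1.09 and 0.889 FPKM (edgeR adjusted p = 0.48). In PLC cells the ratio of 25 over 5 mM was 0.587 (0.55 to 0.627) for RELA and 2.25 (2.02 to 2.51) for RFX5, the DNA-binding subunit of RFX.

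**Figure D4:**
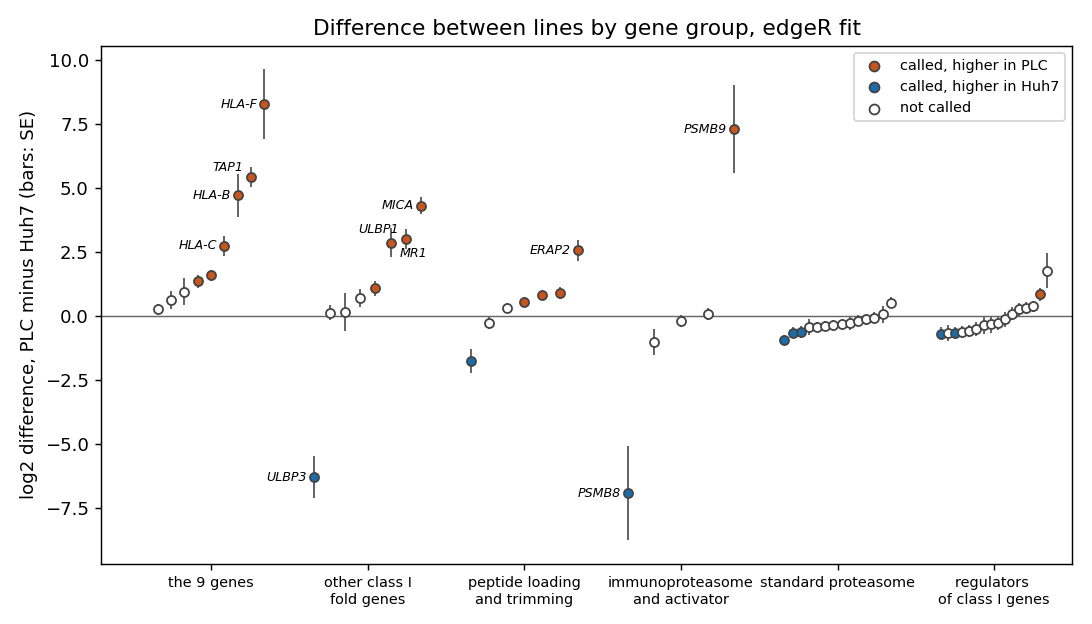
Log2 difference between the lines (PLC minus Huh7, bars are SE of the edgeR fit) for each tested gene, by gene group, with orange points called higher in PLC, blue points called higher in Huh7 and open points not called. Of the 9 class I and loading genes 6 are called higher in PLC, against 0 of 14 standard proteasome subunits and 21.1% of all genes tested. HLA-B and HLA-F passed the count filter only through their PLC reads. The fitted values of HLA-F, PSMB9 and PSMB8, with 0 reads in both libraries of 1 line, depend on the prior count.

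Among 12 class II genes, HLA-DRA, HLA-DQA1 and HLA-DQB1 had 0 reads in all libraries and 3 genes were tested. HLA-DMA, a subunit of the class II peptide editor, was higher in PLC, with 10, 17, 52 and 119 reads (edgeR log2 difference 2.89, SE 0.57, adjusted p = 0.00123), and CIITA, the class II transactivator, and CD74 did not pass. Of 13 class I pseudogenes, 12 were in the table and 3 were tested. HLA-W was higher in PLC with 3, 5, 54 and 33 reads (edgeR log2 difference 3.60, SE 0.73, adjusted p = 0.00145). It passed the count filter only through its PLC reads, and its reads may be shared with the functional heavy chains.

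The mean profile of the 5 genes over 0.5 FPKM in every library (HLA-C, HLA-E, B2M, TAP2 and TAPBP) was compared with 13913 other protein-coding genes by Euclidean distance over 4 libraries, after log2(FPKM + 0.1) and centring. Among the closest genes were PKD1L2 and UBQLN2, at distances of 0.0157 and 0.0573. UBQLN2 was at 12, 11.9, 30.8 and 28.1 FPKM, whereas PKD1L2 reached no more than 0.163 FPKM. The nearest of the 5 genes to their own mean lay at 0.184, and 87 other genes were closer, so over 4 libraries the profile did not set these genes apart.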

How the data were processed

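RNA of 4 libraries (Huh7 and PLC cells, 5 and 25 mM glucose, 48 h) was depleted of rRNA and made into directional libraries. The deposited values are counts, whole numbers of reads assigned to each gene by the authors without normalization. HISAT2, featureCounts and hg38 are named in the submitters' processing notes, and versions, the annotation release and the strand setting are not given in the sources used here. The depth was 21376239, 30085303, 30279716 and 16049686 counted reads, so that 3 reads, the floor used for bounds, stand for 0.14, 0.0997, 0.0991 and 0.187 CPM. Of 59657 lines, 5 of a broken ANK2 entry were left out.

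FPKM was computed from count, table length and library total. Ratios used 0.1 added to both FPKM values for the thresholds of the study (FPKM over 0.5, ratio over 1.5 or under 0.67). The study set these thresholds for long non-coding RNAs, and here they were applied to all genes. The study does not say in which library FPKM must pass, and 1 of the 2 was taken as enough. Intervals of ratios are exact Clopper-Pearson 95% intervals without the added value, and cover counting error only. Line and glucose effects were fitted in edgeR 4.0.16 on all 4 libraries (additive model, TMM, filterByExpr, quasi-likelihood F test, Benjamini-Hochberg over 23217 genes), with SE from the log2 difference and its F value. The fit was also run on simulated counts that held no interaction of line and glucose. That run cannot show how the fit behaves where such an interaction is the error term, as here. Alternatives were RLE size factors, library totals, all counted genes, a minimum of 10 counts in each library, no covariate, DESeq2 1.42.0, limma 3.58.1 and, for ratios, other pseudocounts, filters and scalings. P-values measure the spread between these libraries, not between cultures. Promoter windows came from RefSeq.

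Members and gene lists were chosen with earlier results of these data known. The text names all 9 genes, listed genes past a threshold or needed beside them, genes overlapping them, and the 3 protein-coding genes closest in profile, except genes that are not reported here. Genes of the class I region outside these lists were not analysed here one by one.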

Additional observations from a re-analysis of the deposited data

Results flagged for a closer look

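Of the 9 genes and the listed pathway genes, 85 in all, 7 had ratios of 25 over 5 mM glucose whose counting intervals lay on opposite sides of 1 in the lines, and none of these was among the 9. MICB, a stress ligand of NKG2D, had 295 and 348 reads in Huh7 and 416 and 494 in PLC cells, giving ratios of 0.838 (0.716 to 0.982) in Huh7 and 2.24 (1.96 to 2.56) in PLC. IRF9, the DNA-binding part of the interferon-activated factor ISGF3, had 19 and 9 reads in Huh7 and 43 and 39 in PLC, giving ratios of 0.337 (0.134 to 0.781) and 1.71 (1.08 to 2.7). The other 5 moved less. The ratio was 0.913 in Huh7 and 1.14 in PLC for CANX, 1.04 and 0.842 for PDIA3, and 1.07 and 0.941 for LNPEP. It was 1.04 and 0.919 for PSMA7, and 1.1 and 0.853 for CREB1. With 1 library per condition, the differences between Huh7 and PLC ratios were not tested.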

How the results depend on the processing

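The difference between the lines kept its direction and its side of the threshold for all 9 genes under every alternative that gave a value, 61 values in all. The log2 difference ran from 5.41 to 5.48 for TAP1, 4.69 to 5.51 for HLA-B and 1.55 to 1.59 for TAPBP, with adjusted p up to 0.00738 for HLA-B and 0.0055 for HLA-F across edgeR, DESeq2 and limma. With at least 10 counts in every library HLA-B and HLA-F were not tested and 4 genes were called in place of 6. In that setting 3171 of 16164 genes tested were higher in PLC. For glucose 0 genes were called throughout, and 2 signs turned: HLA-B to 1.04 in DESeq2, which gave no adjusted p, and HLA-E to 0.05 with library totals. Of the PLC ratios, 0 passed the thresholds with a pseudocount of 1, and 3 passed with TMM scaling or with DESeq2 size factors (3), HLA-C and TAP2 joining HLA-B. The share of all genes was not computed for these settings. With FPKM over 0.5 required in both libraries, 3 genes in place of 5 were at least 2-fold apart between the lines. The share of all genes was not computed for that filter.

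Over all genes, edgeR called 9969 for line and 6340 with at least 10 counts. For glucose it called 88 genes (15 higher, 73 lower), 19 with library totals (0 higher), 526 without a filter (242 higher), 27 with at least 10 counts (0 higher) and 0 without the line, where 52 had an unadjusted p under 0.05, while DESeq2 called 194 (63 higher). The cause of these shifts was not tested. Leaving out a library would leave no residual degree of freedom. The labels carry no replicate numbers, so no replicate block was fitted, and the cell line is already a covariate of the glucose fit. Depth limits HLA-B, HLA-F, TAP1 and NLRC5 most in Huh7 cells, where none of these had over 34 reads.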

Other observations

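HLA-DMB, which encodes the partner of HLA-DMA in the class II peptide editor, had 0, 4, 10 and 158 reads in Huh7 cells at 5 and 25 mM and PLC cells at 5 and 25 mM. It was filtered out of the edgeR fit, so no test was made. The ratio of 25 over 5 mM in PLC cells was 29.8 (95% counting interval 15.8 to 63.4). HLA-DMA had a ratio of 4.32 (3.09 to 6.1) in the same libraries, and 1.21 (0.522 to 2.95) in Huh7 cells. The class II chains HLA-DRA, HLA-DQA1 and HLA-DQB1 had 0 reads in every library, and CIITA was at 0.0924, 0.179, 0.148 and 0.237 FPKM.

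Among the class I pseudogenes, 7 of the 12 in the table were over 0.5 FPKM in at least 1 PLC library, and 5 of these 7 had a ratio over 1.5, against 26.2% of all genes past that level, while 0 had a ratio under 0.67, against 17%. Of the 5, HLA-Z had 0 and 3 reads, HLA-P 0 and 8, and HLA-T 7 and 6 with an interval of 0.449 to 5.62. HLA-K, HLA-P and HLA-Z passed the level only in the high-glucose PLC library, at 0.834, 0.667 and 2.49 FPKM. In the low-glucose PLC library they were at 0.253, 0 and 0 FPKM. The level filter itself thus favoured high ratios for these genes. The count of 5 set against 26.2% therefore cannot show a response of the pseudogenes to glucose. Counts of the pseudogenes were small, with at most 84 reads in any library, and none of the 3 tested was called for glucose by edgeR.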
